A study of Mus musculus with 3 samples.

Results

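Retinae taken 2 days after an injection of Cav1-shRNA into the vitreous of the eye were compared with retinae taken 2 hr after an injection of cavtratin, on 1 Affymetrix whole-transcript array each. These are 2 of the 3 arrays in the series. They were identified by their labels, and the comparison was chosen with earlier results of these data known. The hairpin is named for caveolin-1, the coat protein of caveolae, and cavtratin is a peptide made from the scaffolding domain of the same protein, joined to a sequence that brings it into cells. The third array held retinae injected with AP, which the labels call the control without spelling it out, and which were taken at 2 hr. All mice were of strain C57, and 5 to 6 retinae went into each pool. The sources used here do not give the age of the mice or the vector and sequence of the hairpin. The 3 arrays of the series include no control hairpin and no control taken at 2 days. Agent and time both differ between the arrays, so hairpin against peptide and 2 days against 2 hr cannot be told apart.

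An injection into the eye is an injury, and the retina answers it with its own cells and with leukocytes from the blood. Neutrophils are drawn first, by CXC chemokines that act on the receptor Cxcr2, and they carry S100 proteins, the granulocyte colony-stimulating factor receptor and receptors for bacterial peptides. Monocytes follow and become macrophages. These, like the resident microglia, take up debris, make complement C1q and can present antigen on MHC class II molecules.

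Each value below is the deposited log2 value of a gene's probe set, and each difference is Cav1-shRNA minus cavtratin. A gene was counted as 2-fold apart when its difference was at least 1 in size and the higher of both arrays reached an expression floor of 6.50, the median level of all named probe sets. With 1 array a side there is no replicate, no test and no p-value, and every difference compares these 2 arrays. As a yardstick of the spread between probe sets within these arrays, the differences of 2 probe sets of the same gene were compared over 278 genes. The SD of a single probe set's difference came to 0.136, which holds no spread between animals. Effects of an array that both probe sets share cancel out of it, and the tied values counted next may lower it. Of 11472 genes that reached the floor, 2967 (25.9%) had a positive difference and 2231 (19.4%) a negative one. The other 6274 (54.7%) had the same deposited value in both arrays. The sources used here do not say why so many values tie, so a difference of 0 need not be a measured equality. The median difference of the 11472 genes was 0, and their 1st and 99th percentiles were −0.82 and 0.25. The gene lists, and all counts over them, take in each member on the array, also those below the floor. Shares of all genes given beside such counts cover genes at the floor alone. The lists were chosen with earlier results of these data known. Their counts therefore describe the members and are not independent support. Photoreceptor genes marked the tissue as retina in each array, with Gnat1, rod transducin, at 13.19 in both arrays and Opn1sw, the blue cone opsin, at 11.77 in Cav1-shRNA and 11.62 in cavtratin.

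Cav1 itself was at 8.26 in Cav1-shRNA, 8.26 in cavtratin and 8.26 in AP control, 1 of the many genes with tied values. No lower value was therefore measured in the library labelled Cav1-shRNA, and each direction below is drawn with that label unchecked. Of the 15 measured genes of the caveolae list, 3 lay above 0, 4 below and 8 at 0, and none was 2-fold apart. Ehd1, an endocytic recycling protein, had the largest difference among those at the floor, with 8.44 in Cav1-shRNA and 8.75 in cavtratin.

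The comparison was lopsided. At least 2-fold lower in Cav1-shRNA than in cavtratin were 90 genes, 0.785% of those that reached the floor, and at least 2-fold higher were 4, or 0.0349%. Crystallins, inflammatory cytokines and chemokines, and genes of granulocytes were among the lower genes, with myeloid receptors, acute-phase proteins and 28 genes in no list, while Ly6c2, Ms4a7, Ccl5 and Ecel1 were the higher side. The lower genes closest to the threshold were at −1.012 inside it and at −0.998 outside it, and the higher genes at 1.06 and 0.97. In 61 of the 90 lower genes both arrays reached the floor. In the other 29 the Cav1-shRNA value lay below it, as did the cavtratin value of 2 of the 4 higher genes. Those differences are measured values that may be understated. Where such genes are ranked or their arrays set in order below, the order rests partly on values near background.

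**Figure D1:**
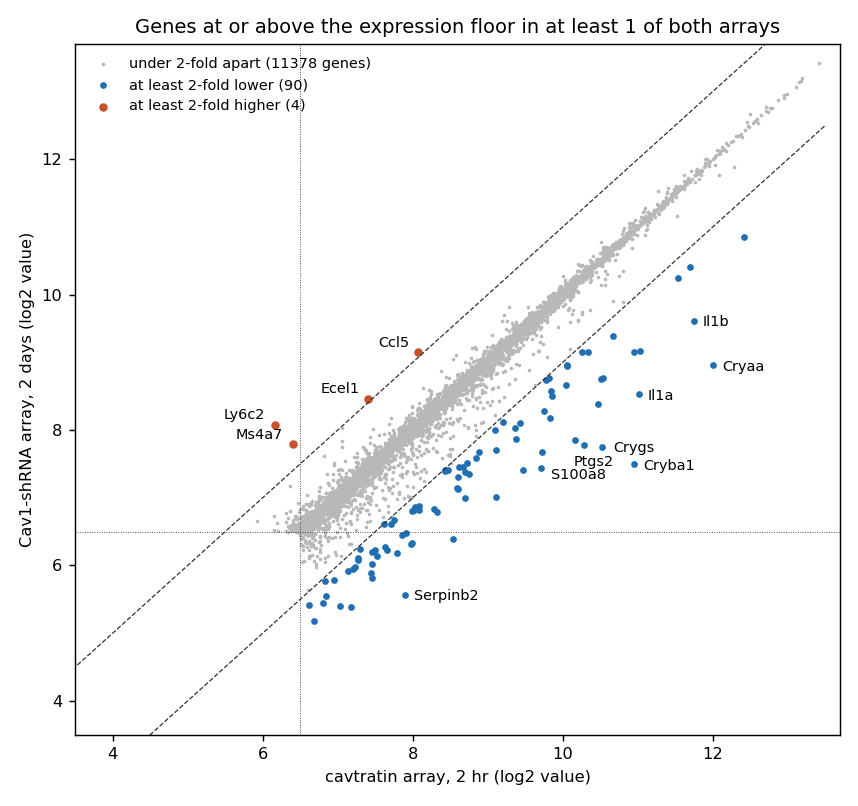
Log2 value of each gene in the cavtratin array (horizontal) against the Cav1-shRNA array (vertical), 1 array per group, for genes at or above the floor of 6.50 (dotted lines) in at least 1 of them. Dashed lines mark 2-fold: 90 blue genes lie below the lower line, and 4 orange genes, Ly6c2, Ms4a7, Ccl5 and Ecel1, above the upper one.

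The AP control array, which neither value of the difference uses, showed where each gene stood without either agent at 2 hr. In 69 of the 90 lower genes the AP control value lay below Cav1-shRNA, so that the order was AP control, Cav1-shRNA, cavtratin. In 2 it equalled Cav1-shRNA, in 19 it lay between both, and in 0 it reached cavtratin. AP control lay below the floor in 47 of the 90 and Cav1-shRNA in 29, so the order of these 2 arrays partly rests on values near background. AP control was nearer to Cav1-shRNA in 85 of the 90. The exceptions, named after their values were seen, were Grem1, Rsad2, Serpinb2, Slc7a11 and Trim30d, in which AP control was nearer to cavtratin. For Serpinb2 and Trim30d it lay close to the middle. Serpinb2 was at 5.56 in Cav1-shRNA, 6.79 in AP control and 7.89 in cavtratin, and Trim30d at 6.11, 6.78 and 7.27. AP control was nearer to cavtratin in all 4 higher genes, so in each of these Cav1-shRNA stood above both arrays taken at 2 hr.

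Ly6c2 encodes a surface protein of inflammatory monocytes. It was at 8.08 in Cav1-shRNA, 6.16 in cavtratin and 6.59 in AP control, a measured difference of 1.92 against a cavtratin value below the floor. Ms4a7, a membrane protein of macrophages, was at 7.79 in Cav1-shRNA against 6.40 in cavtratin and 6.43 in AP control, both below the floor, a measured difference of 1.39. For both genes the arrays taken at 2 hr lay close together near the floor, with Cav1-shRNA alone above them. Ly6c1, a close paralog of Ly6c2, stayed below the floor in all 3 arrays. Whether probes of the 2 genes share signal was not tested, here or for other gene families with near copies, such as the crystallins, CXC chemokines and Schlafen genes. Ccl5, a chemokine for T cells and monocytes, was at 9.15, 8.07 and 8.49 in Cav1-shRNA, cavtratin and AP control, a difference of 1.08.

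Genes of injured neurons were also among the highest. Ecel1, a peptidase induced in neurons whose axons are damaged, was at 8.46 in Cav1-shRNA, 7.41 in cavtratin and 7.62 in AP control, a difference of 1.06. Sprr1a, a small proline-rich protein of regenerating axons, was at 8.03, 7.06 and 7.53, a difference of 0.97. Gal, the neuropeptide galanin, was at 7.61 against 7.22 in cavtratin. The axon injury list as a whole did not follow them, with 3 of 15 measured genes above 0, 5 below, 7 at 0 and a median of 0. Its member Atf3, a stress-induced transcription factor, was at 8.74 in Cav1-shRNA and 8.91 in cavtratin.

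Antigen presentation and phagocyte genes held the next places. H2-Eb1, H2-Aa and H2-Ab1 encode chains of the MHC class II molecules. H2-Eb1 was at 7.84 in Cav1-shRNA, 7.06 in cavtratin and 7.24 in AP control, H2-Aa at 7.74, 7.05 and 7.05, and H2-Ab1 at 7.89, 7.44 and 7.60. The differences of these 3 chains, 0.78, 0.69 and 0.46, stayed short of 2-fold, and both arrays taken at 2 hr were below Cav1-shRNA in each. Over the 10 measured class II genes, 4 lay above 0, 0 below and 6 at 0, while 25.9% of all genes at the floor lay above 0. Ciita, the master activator of these genes, was at 6.55 in both arrays.

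Complement C1q and some genes of phagocytes were likewise highest in Cav1-shRNA, although 14 of the 22 macrophage and shared myeloid markers had a negative difference. C1qb was at 9.05 in Cav1-shRNA, 8.54 in cavtratin and 8.63 in AP control, and C1qa at 7.75, 7.34 and 7.30, differences of 0.51 and 0.41. Trem2, a lipid-sensing receptor of microglia and macrophages, was at 7.51, 6.95 and 6.95, a difference of 0.57. Ctss, a cathepsin that trims the class II invariant chain, was at 9.10 against 8.57 in cavtratin, and Lyz2, the lysozyme of myeloid cells, at 9.81 against 9.29, both 0.53 apart. Ly86, which partners a Toll-like receptor relative on antigen-presenting cells, was at 8.87 against 8.38. In AP control Ctss and Lyz2 were lowest of the 3 arrays, at 8.24 and 8.97. The complement list had 8 of 16 measured genes above 0 and 5 below, among them Serping1, the C1 inhibitor, at 9.70 in Cav1-shRNA and 9.22 in cavtratin. Its median was 0.013, beside 0 over all genes at the floor, and none of its members was 2-fold apart. Of all genes at the floor 25.9% lay above 0 and 19.4% below.

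The rest of the 15 highest genes have other roles. Apod, a lipid-binding lipocalin of glia, was at 7.61 in Cav1-shRNA, 6.82 in cavtratin and 7.39 in AP control, a difference of 0.79. Apobec2, a muscle member of the cytidine deaminase family, was at 8.02, 7.46 and 7.52, and Crispld2, a secreted cysteine-rich protein, at 7.49, 6.95 and 7.51. For Apod and Crispld2 cavtratin was the array that stood low.

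**Figure D2:**
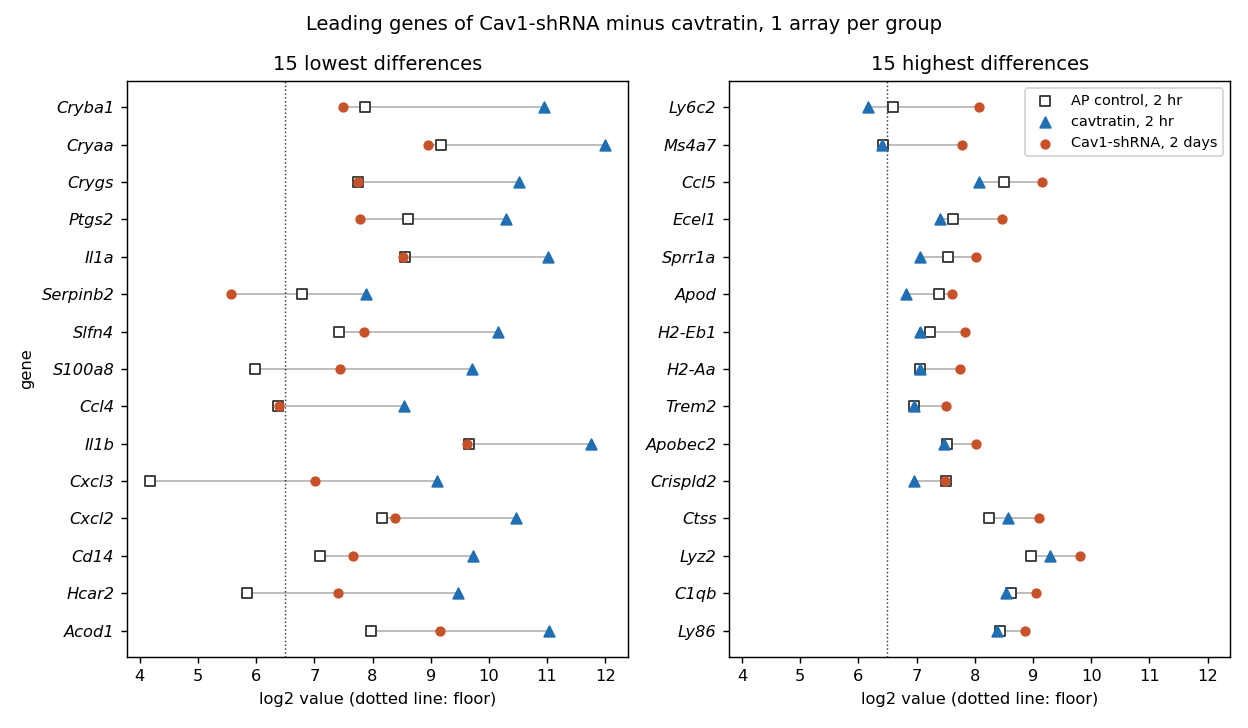
Log2 values in the AP control (open squares), cavtratin (triangles) and Cav1-shRNA (circles) arrays for the 15 genes with the lowest and the 15 with the highest measured difference of Cav1-shRNA minus cavtratin, 1 array per group. Cavtratin is highest of the 3 arrays in all 15 genes on the left, and Cav1-shRNA is highest on the right except for Crispld2, where AP control stands at 7.51 and Cav1-shRNA at 7.49.

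Neutrophil markers stood lower in Cav1-shRNA. Of 20 measured, 15 had a negative difference, 1 a positive one and 4 none, 9 were at least 2-fold lower, and the median was −0.95. Over all genes at the floor the median was 0, and 0.785% were at least 2-fold lower. S100a8, which with S100a9 forms calprotectin, was at 7.44 in Cav1-shRNA, 9.72 in cavtratin and 5.98 in AP control, a difference of −2.28. S100a9 was at 6.02, 7.46 and 5.77, below the floor in all but cavtratin. Csf3r, the granulocyte colony-stimulating factor receptor, was at 7.71 in Cav1-shRNA, 9.10 in cavtratin and 7.15 in AP control. Cxcr2, the receptor through which neutrophils follow CXC chemokines, was at 6.81, 8.08 and 6.58. In each of these 4 genes the Cav1-shRNA array was between the other two, nearer to AP control.

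Other members at least 2-fold lower were Retnlg at −1.62, the formyl peptide receptor Fpr2 at −1.53, the amplifying receptors Trem1 at −1.47 and Trem3 at −1.05, and the interleukin-1 decoy receptor Il1r2 at −1.43. Markers of neutrophil precursors did not accompany them. Elane and Mpo, primary granule proteins transcribed in bone marrow, and Camp and Ngp, secondary granule proteins, were below the floor in all 3 arrays. So was Ly6g, a defining surface marker of mouse neutrophils, at 4.94 in Cav1-shRNA and 5.47 in cavtratin. In all, 8 of the 20 markers were below the floor in every array. Summed on the linear scale and returned to log2, the list came to 10.85 in Cav1-shRNA, 12.09 in cavtratin and 10.35 in AP control. Since bulk tissue was measured, fewer cells of a type and less RNA per cell cannot be told apart.

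Monocyte markers were split. Of 17 measured, 5 lay above 0, 10 below and 2 at 0, with 1 gene at least 2-fold higher, 1 at least 2-fold lower and a median of −0.025. Among the 10 at the floor, 2 lay above 0 and 7 below, with a median of −0.25. Opposite to Ly6c2 stood Cd53, a leukocyte tetraspanin, at 9.39 in Cav1-shRNA, 10.67 in cavtratin and 7.76 in AP control, a difference of −1.28. F13a1, the coagulation factor XIII chain made by monocytes, was at 7.08, 7.82 and 5.99. Ms4a6c, an Ms4a family member of monocytes, went the other way, at 7.41 against 7.0 in both arrays taken at 2 hr. Ccr2, the chemokine receptor that defines inflammatory monocytes, was below the floor, at 6.10 in both arrays and 5.90 in AP control. The list summed to 11.47 in Cav1-shRNA, 11.91 in cavtratin and 10.80 in AP control. A name such as monocyte-type for the Cav1-shRNA side was not borne out by the list as a whole, so that side is called here by its leading genes, Ly6c2, Ms4a7, Ccl5 and Ecel1.

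Markers shared by macrophages and other myeloid cells were mostly lower. Of 22, 14 had a negative difference and 6 a positive one, beside 19.4% and 25.9% of all genes at the floor. The median was −0.47. Cd14, the co-receptor for bacterial lipopolysaccharide, was at 7.67 in Cav1-shRNA, 9.73 in cavtratin and 7.09 in AP control. Itgam and Itgb2, the chains of the leukocyte integrin Mac-1, were at 7.15 and 7.71 in Cav1-shRNA, at 8.0 and 8.53 in cavtratin, and at 6.32 and 6.70 in AP control. Cd68, a lysosomal protein of phagocytes, was at 9.16, 9.67 and 8.09, a difference of −0.51. The positive members were led by Ms4a7, Ctss and Lyz2. The list summed to 12.65 in Cav1-shRNA, 13.04 in cavtratin and 11.83 in AP control.

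Markers of resident microglia differed little. Of 16, 8 lay above 0, 1 below and 7 at 0, with a median of 0.016 and a highest difference of 0.57, that of Trem2. Of all genes at the floor 25.9% lay above 0. P2ry12, the purinergic receptor of resting microglia, was at 6.87 in all 3 arrays, and Cx3cr1, the fractalkine receptor, was at 7.73 in Cav1-shRNA and 7.59 in cavtratin. Markers of T, B and NK cells were below the floor in all 3 arrays in 16 of 16 measured genes.

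Chemokine genes were in separate lists for neutrophils and for mononuclear cells. Of 12 ligands and receptors of the neutrophil chemokine list, 11 had a negative difference, 0 a positive one, and 7 were at least 2-fold lower, with a median of −1.37. Of all genes at the floor 19.4% had a negative difference and 0.785% were at least 2-fold lower. At the floor were 7 members of the list, all with a negative difference. That list also holds Ccl3, Ccl4, Ccr1 and Ccrl2, which are not particular to neutrophils and were all at least 2-fold lower. The 8 CXC ligands and receptors alone had 7 below 0, 3 at least 2-fold lower and a median of −0.43. Cxcl2 and Cxcl3 encode ligands of Cxcr2. Cxcl2 was at 8.39 in Cav1-shRNA, 10.47 in cavtratin and 8.16 in AP control, a difference of −2.09, and Cxcl3 was at 7.01, 9.10 and 4.17, a difference of −2.10. The 2 genes were alike in Cav1-shRNA against cavtratin but not in AP control, where Cxcl2 was expressed and Cxcl3 was below the floor. Ccl3 and Ccl4 encode the macrophage inflammatory proteins, chemokines of activated myeloid cells. Ccl3 was at 10.84, 12.41 and 9.98, and Ccl4 at 6.39, 8.54 and 6.38. Ccl4 in Cav1-shRNA thus stood at its AP control level, with both of these values below the floor. Ccr1 was at 5.89, 7.45 and 5.22, and Ccrl2, a receptor that presents chemerin, at 8.28, 9.75 and 6.26.

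The chemokines for mononuclear cells had a median difference of 0 over 16 genes, with 6 above and 5 below. Among the 9 at the floor, 3 lay above 0 and 5 below, with a median of −0.34. Ccl5 was the 1 member at least 2-fold higher and Ccl6 the 1 at least 2-fold lower, at 6.46 in Cav1-shRNA and 7.86 in cavtratin. Ccl7, a monocyte attractant, was at 6.57 in Cav1-shRNA, 7.38 in cavtratin and 9.27 in AP control. Cxcl10, an interferon-inducible ligand of Cxcr3, was at 6.42, 7.03 and 10.32. Ccl2, the main ligand of Ccr2, was at 7.46, 8.04 and 10.58. These 3 chemokines were highest in AP control and low in both other arrays, the reverse of Cxcl3, and the step between Cav1-shRNA and cavtratin was small beside it.

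**Figure D3:**
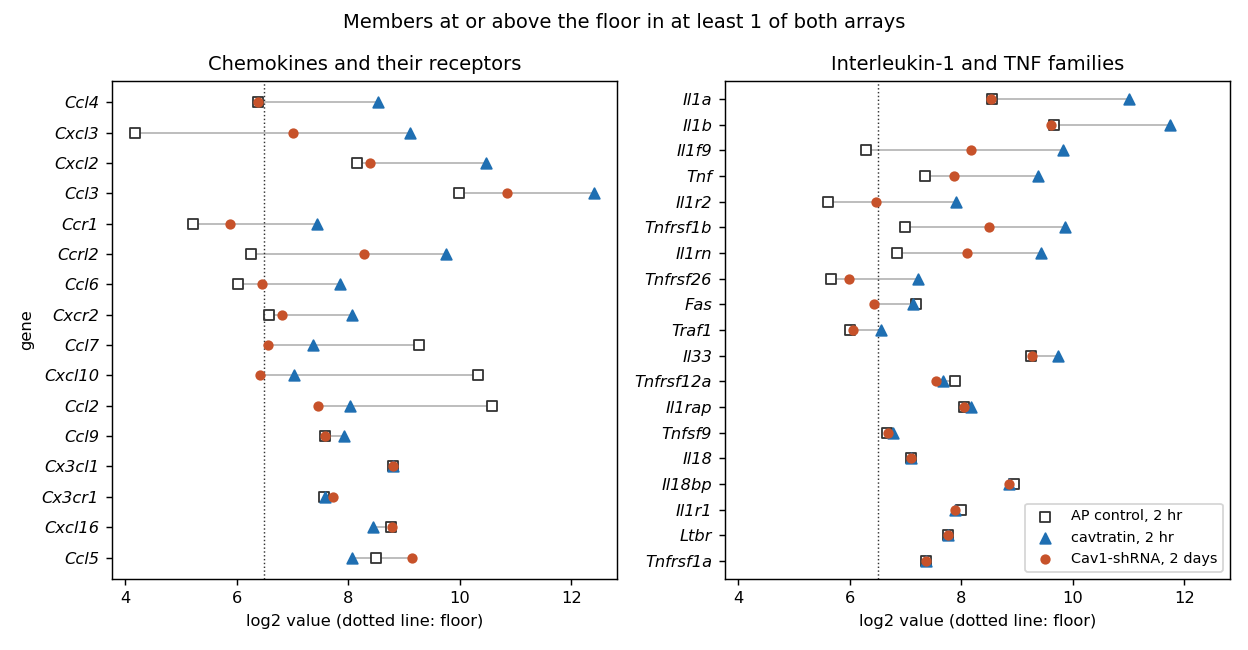
Log2 values in the AP control (open squares), cavtratin (triangles) and Cav1-shRNA (circles) arrays for chemokines and their receptors (left) and the interleukin-1 and tumor necrosis factor families (right), ordered by the difference of Cav1-shRNA minus cavtratin, for members that reached the floor in at least 1 of these 2 arrays. Genes at the top have cavtratin to the right of both other arrays, and Ccl5 at the bottom left has Cav1-shRNA at 9.15 and cavtratin at 8.07.

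Upstream sequence is shown for genes of both directions, to set chemokine and cytokine genes that were low in Cav1-shRNA beside 2 of the 4 higher genes. Each line gives the 250 bases before the most upstream RefSeq start of the gene in GRCm38.p6, read 5′ to 3′ on the gene's strand, with matches to the NF-kB consensus in capitals.
Cxcl2, chr5:90903649-90903898, plus strand: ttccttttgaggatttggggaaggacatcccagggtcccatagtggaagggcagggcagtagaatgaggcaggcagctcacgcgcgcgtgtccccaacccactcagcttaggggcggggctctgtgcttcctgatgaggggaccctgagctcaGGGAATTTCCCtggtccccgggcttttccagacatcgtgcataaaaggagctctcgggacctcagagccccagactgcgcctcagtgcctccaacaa
Cxcl3, chr5:90785851-90786100, plus strand: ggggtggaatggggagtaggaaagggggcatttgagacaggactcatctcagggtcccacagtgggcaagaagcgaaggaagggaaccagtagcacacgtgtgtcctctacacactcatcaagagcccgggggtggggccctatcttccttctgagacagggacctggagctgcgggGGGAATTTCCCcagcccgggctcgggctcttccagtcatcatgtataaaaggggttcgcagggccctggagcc
Il1b, chr2:129371140-129371389, minus strand: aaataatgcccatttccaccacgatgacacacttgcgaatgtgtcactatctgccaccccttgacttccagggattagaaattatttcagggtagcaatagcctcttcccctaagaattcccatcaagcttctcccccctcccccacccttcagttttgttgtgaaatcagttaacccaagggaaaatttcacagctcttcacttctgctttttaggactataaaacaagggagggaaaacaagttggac
Ly6c2, chr15:75111972-75112221, minus strand: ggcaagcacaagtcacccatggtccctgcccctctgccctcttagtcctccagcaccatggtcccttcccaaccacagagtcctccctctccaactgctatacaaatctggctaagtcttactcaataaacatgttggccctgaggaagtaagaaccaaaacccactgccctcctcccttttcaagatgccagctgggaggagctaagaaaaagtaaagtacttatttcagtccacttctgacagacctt
Ms4a7, chr19:11336147-11336396, minus strand: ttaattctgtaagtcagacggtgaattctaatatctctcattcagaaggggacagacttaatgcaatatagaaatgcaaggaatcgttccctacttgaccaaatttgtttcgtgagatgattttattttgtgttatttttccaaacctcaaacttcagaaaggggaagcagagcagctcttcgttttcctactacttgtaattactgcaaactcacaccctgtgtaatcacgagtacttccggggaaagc

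Cxcl2 and Cxcl3 each held 2 matches to the NF-kB consensus that overlap in all but 1 base, and the first began 97 bases before the start in Cxcl2 and 73 bases before it in Cxcl3. The windows of Il1b, Ly6c2 and Ms4a7 held 0. Of the 90 lower genes 75 had a promoter in the RefSeq table, and 9 of these (12.0%) held a match, against 7.03% of all 27025 promoters and 8.60% of the 9081 among genes that reached the floor. TGANTCA, the AP-1 motif, was found in 10 of the 75 (13.3%), against 6.85% of all promoters and 3.88% of those that reached the floor. TATAAA on either strand was found in 21 of the 75 (28.0%), Cxcl3 and Il1b among them, against 13% and 6.30%. Both strands were searched and each motif was counted separately, so 1 promoter can count under several. A match describes letters in this window and no binding was measured.

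The interleukin-1 family had 9 of 14 measured genes below 0, 0 above and 5 at 0, and 5 were at least 2-fold lower, beside 0.785% of all genes at the floor. Among the cytokines, Il1a was at 8.53 in Cav1-shRNA, 11.01 in cavtratin and 8.56 in AP control, a difference of −2.49, and Il1b was at 9.62, 11.75 and 9.65, a difference of −2.13. Both cytokines were thus at about the AP control level in Cav1-shRNA, and cavtratin alone was high. Il1rn, the receptor antagonist, and Il1f9, an epithelial and myeloid member of the family, stood above AP control in both treated arrays. Il1rn was at 8.10, 9.43 and 6.85, and Il1f9 at 8.18, 9.83 and 6.28. The receptors Il1r1 and Il1rap, which carry the signal, were at 7.88 and 8.06 in Cav1-shRNA and at 7.88 and 8.17 in cavtratin.

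Tnf, the tumor necrosis factor, was at 7.87 in Cav1-shRNA, 9.38 in cavtratin and 7.34 in AP control. Of its receptors Tnfrsf1b, found on leukocytes and endothelium, was at 8.50, 9.86 and 6.99, while Tnfrsf1a, found on most cells, was at 7.36 in both arrays. The family had 9 of 16 genes below 0 and 0 above, and 3 were at least 2-fold lower. Of all genes at the floor 19.4% had a negative difference and 0.785% were at least 2-fold lower. The inflammasome sensor Nlrp3 was at 6.33, 7.99 and 6.07, and the inflammatory caspase Casp4 at 6.08, 7.27 and 5.65, each above the floor in cavtratin only. Osm, a cytokine of the interleukin-6 family made by neutrophils and macrophages, was at 6.32, 7.14 and 6.14, while Il6 was at 4.34, 4.98 and 7.31, above the floor in AP control only.

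Receptors that sense microbes and dying cells were lower as well. In the list of C-type lectins and myeloid surface receptors 17 of 20 genes had a negative difference, with a median of −0.55. At least 2-fold lower were 8, beside 0.785% of all genes at the floor. Clec4e, or Mincle, was at 8.77 in Cav1-shRNA, 10.54 in cavtratin and 7.0 in AP control, and its partner Clec4d at 7.58, 8.84 and 5.63. Hcar2, the receptor for beta-hydroxybutyrate and niacin, was at 7.41, 9.46 and 5.84, a difference of −2.05. Olr1, a scavenger receptor for oxidised lipoprotein, was at 6.32, 7.98 and 5.81. The inhibitory receptor Lilrb4a was at 10.41, 11.70 and 9.53. In these 5 genes Cav1-shRNA lay between AP control and cavtratin, although for Olr1 the Cav1-shRNA and AP control values were both below the floor.

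Of 15 Toll-like receptor genes and adaptors, 10 had a negative difference and 3 a positive one, with a median of −0.18. Next to Cd14, Tlr6 was at 6.21 in Cav1-shRNA, 7.45 in cavtratin and 5.53 in AP control, and Irak3, an inhibitor of the pathway, at 6.80, 7.99 and 5.98. Secreted acute-phase and antimicrobial proteins had 14 of 17 genes below 0 and a median of −0.36. At least 2-fold lower were 7 of these 17 and 3 of the 15 in the Toll-like receptor list. Of all genes at the floor 19.4% had a negative difference and 0.785% were at least 2-fold lower. Saa3, an acute-phase serum amyloid of macrophages, was at 10.25, 11.53 and 8.14, and Slpi, an inhibitor of neutrophil elastase, at 8.66, 10.04 and 6.40. Wfdc17, another small protease inhibitor of myeloid cells, was at 8.76, 10.50 and 7.49. Lcn2, the iron-siderophore binder lipocalin 2, was high in each array, at 11.16, 11.52 and 10.93.

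Transcription factors and signalling inhibitors differed by less. The list of NF-kB subunits and feedback inhibitors had 12 of 14 genes below 0, 1 above, and a median of −0.26. Nfkbia, the inhibitor IkB-alpha, was at 9.19 in Cav1-shRNA, 10.09 in cavtratin and 8.94 in AP control. Birc3, an NF-kB-induced ubiquitin ligase, was at 6.87, 8.02 and 7.30, the 1 member at least 2-fold lower. Immediate-early genes had 21 of 30 below 0, 3 above and a median of −0.062. Of all genes at the floor 19.4% lay below 0 and 25.9% above. The orphan receptor Nr4a3 was at 5.92, 7.14 and 6.09, Dusp1, a phosphatase of MAP kinases, at 8.42, 9.14 and 8.27, and Nr4a1 at 8.43, 9.06 and 8.43. Cav1-shRNA was at or near AP control for all 3, with both values below the floor for Nr4a3.

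Interferon-stimulated genes had 15 of 26 below 0, 5 above and a median of −0.072. Rsad2, the antiviral enzyme viperin, was at 7.36 in Cav1-shRNA, 8.76 in cavtratin and 8.37 in AP control, a difference of −1.40. Slfn4, a Schlafen gene of myeloid cells that interferon induces, was at 7.85, 10.16 and 7.42, a difference of −2.31. Oasl1, an oligoadenylate synthetase relative, was at 6.81, 7.55 and 6.96. Guanylate-binding proteins and immunity-related GTPases did not share this, with 7 of 13 above 0 and 5 below. Gbp9 was at 7.21 in Cav1-shRNA, 6.87 in cavtratin and 8.12 in AP control. For Rsad2 the Cav1-shRNA array stood low, whereas for Gbp9 both treated arrays stood below AP control.

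Enzymes and matrix genes of inflammation had large differences, in some lists with many other members at 0. Ptgs2, the inducible cyclooxygenase, was at 7.79 in Cav1-shRNA, 10.29 in cavtratin and 8.60 in AP control, a difference of −2.50. Its list of 15 prostaglandin and leukotriene genes had 9 at 0, 4 below and 2 above. Nos2, inducible nitric oxide synthase, was at 7.30, 8.61 and 6.41, and Arg1, arginase 1, which uses the same substrate, at 8.12, 9.20 and 5.70. In Cav1-shRNA Arg1 stood far above AP control, whereas Ptgs2 stood below it. Acod1, the enzyme that makes itaconate in activated macrophages, was at 9.16, 11.03 and 7.98, a difference of −1.87.

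Serpinb2, an inhibitor of plasminogen activators made by macrophages, was at 5.56 in Cav1-shRNA, 7.89 in cavtratin and 6.79 in AP control, and Plaur, the urokinase receptor, at 6.61, 7.71 and 7.03. Cav1-shRNA was the lowest array for both, below the floor for Serpinb2. Of 11 measured plasminogen activation genes 6 lay below 0, 1 above and 4 at 0, and 2 were at least 2-fold lower. Among the 7 at the floor the median was −0.73. F10 at −0.996, Thbd at −0.73 and F3 at −0.61 also lay below 0, and Plat went the other way at 0.40. Thbs1, the matrix protein thrombospondin 1, was at 9.16, 10.94 and 7.96, a difference of −1.79 and the 1 member of 23 matrix and hyaluronan genes at least 2-fold apart. Ednrb, the endothelin B receptor of glia and endothelium, was at 8.94, 10.05 and 7.98. Egln3, a prolyl hydroxylase that uses oxygen to mark hypoxia-inducible factors, was at 7.46, 8.62 and 6.56, and Pfkfb3, an activator of glycolysis, at 7.40, 8.43 and 7.05, while the median of 19 hypoxia and glycolysis genes was 0. Slc7a11, the cystine importer, was at 8.73, 9.77 and 9.63, and Hmox1, heme oxygenase 1, at 8.67, 9.28 and 7.39. These 2 stress genes thus differed in which array stood apart, Cav1-shRNA for Slc7a11 and AP control for Hmox1. A second Slc7a11 probe set, below the floor, had a difference of −0.11, and with the mean of both, at −0.58, Slc7a11 was no longer 2-fold apart.

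The 3 largest measured differences were those of crystallins, which make up most of the protein in lens fibres. Cryba1 was at 7.50 in Cav1-shRNA, 10.95 in cavtratin and 7.87 in AP control, a difference of −3.45. Cryaa, a lens chaperone, was at 8.96, 12.00 and 9.18, a difference of −3.04, and Crygs was at 7.76, 10.52 and 7.76, a difference of −2.77. Cavtratin stood alone in these 3 genes, with Cav1-shRNA at or below AP control. A second Cryaa probe set gave 5.45 in Cav1-shRNA and 6.80 in cavtratin, a difference of −1.35, so the mean of both was −2.20.

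Of 16 measured crystallins 12 had a negative difference, 1 a positive one and 3 none, and 6 were at least 2-fold lower. Of all genes at the floor 19.4% had a negative difference and 0.785% were at least 2-fold lower. Below the floor in all 3 arrays were 6 of the 16 crystallins. The 8 other lens genes had 3 below 0, 2 above and 3 at 0, and 5 of them were below the floor in all 3 arrays. Lgsn, a glutamine synthetase relative of lens fibres, was the 1 of the 8 at least 2-fold lower, at 5.44 in Cav1-shRNA, 6.81 in cavtratin and 5.56 in AP control. The lens channel gene Mip was at 6.76 in Cav1-shRNA and 6.74 in cavtratin. The whole list summed to 11.61 in Cav1-shRNA, 13.46 in cavtratin and 11.64 in AP control, and its median difference was −0.59. Retinal neurons and glia can express crystallins too, and the part of lens tissue in these values was not tested. When all lens genes were left out, an alternative chosen after seeing the data, 83 genes remained at least 2-fold lower and 4 higher. Markers of retinal pigment epithelium, the other tissue next to the retina, had 9 of 12 below 0, 1 above and a median of −0.18, led by Rgr at 9.30 in Cav1-shRNA and 9.70 in cavtratin.

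**Figure D4:**
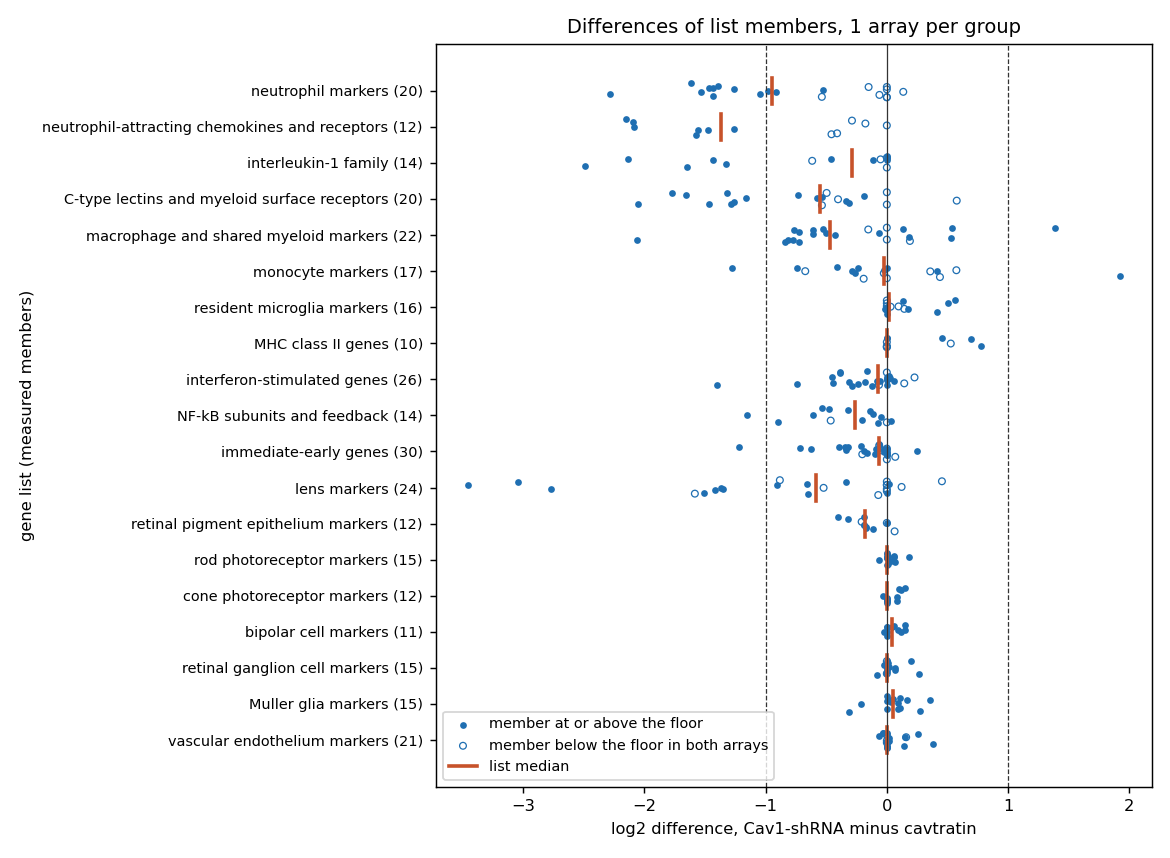
Difference of Cav1-shRNA minus cavtratin on the log2 scale for each measured member of 19 gene lists, 1 array per group, with filled points for members that reached the floor, open points for members below it in both arrays, and an orange bar at each list median. Neutrophil markers and neutrophil chemokines have medians of −0.95 and −1.37, and the medians of rod, cone, bipolar, ganglion cell, Muller glia and endothelial markers lie between 0 and 0.049.

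Markers of retinal neurons, Muller glia and vessels had close to equal deposited values in both arrays, many of them tied. Medians were 0.00094 for 15 rod markers, 0.0019 for 12 cone markers, 0.044 for 11 bipolar markers, 0 for 15 ganglion cell markers and 0.049 for 15 Muller glia markers, and none of these genes was 2-fold apart. Rcvrn, recoverin, had the largest rod difference, with 11.27 in Cav1-shRNA and 11.09 in cavtratin. Among Muller glia genes Apoe, a lipid carrier, was at 7.41 against 7.05 in cavtratin, and Vim, vimentin, at 11.77 against 12.08. Gfap, the intermediate filament that marks gliosis, was at 8.32 in Cav1-shRNA and 8.33 in cavtratin, both above the 7.96 of AP control. In the astrocyte list Gja1, a connexin of gap junctions, was at 7.39, 8.11 and 7.48. Of 21 endothelial markers 7 lay above 0, 3 below and 11 at 0, with Cldn5, the tight junction claudin of vessels, at 7.15 in Cav1-shRNA and 6.77 in cavtratin and Cdh5, the endothelial cadherin, at 8.24 and 7.99. Medians were 0 for 11 pericyte, 15 amacrine and horizontal cell and 17 synaptic genes as well. Pou4f1, the ganglion cell factor Brn3a, had a positive difference of 0.27, with 7.41 in Cav1-shRNA and 7.15 in cavtratin.

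Stress and repair lists leaned to the negative side with few large members. Of 19 gliosis and injury genes 11 lay below 0 and 5 above, with a median of −0.012. Gadd45b, a stress-induced regulator of growth arrest, was at 9.15 in Cav1-shRNA, 10.25 in cavtratin and 8.63 in AP control, and Cd44, the hyaluronan receptor, at 7.85, 8.31 and 7.94. Heat shock genes had 5 of 12 below 0 and 1 above. Their largest difference was that of Cryab, a small heat shock protein that is also a lens crystallin, at 9.90, 10.81 and 9.71. Hspa1a and Hspa1b, near copies of each other, were both at −0.41. Of 15 genes of the unfolded protein response 4 lay below 0 and 11 at 0.

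Among 15 p53 and apoptosis genes 7 lay below 0 and 4 above. Cdkn1a, the cell cycle inhibitor p21, was at 8.49 in Cav1-shRNA, 9.21 in cavtratin and 8.79 in AP control, and Fas, a death receptor, at 6.43, 7.13 and 7.19. Oxidative stress genes had 10 of 15 below 0, 3 above and a median of −0.10, with Fth1, ferritin heavy chain, at 11.88, 12.28 and 11.46. Metalloproteinases and their inhibitors had 9 of 17 below 0 and 3 above. Their neutrophil collagenase Mmp8 was at 6.14, 7.05 and 5.19, and Adam8, a membrane protease of leukocytes, at 7.05, 7.82 and 6.41. Adhesion molecules of leukocytes had 7 of 15 below 0 and 4 above, led by the Mac-1 chains.

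The remaining lists held no gene at least 2-fold apart other than Thbs1. Lysosome and phagocytosis genes had 9 of 20 above 0 and 8 below, with Cd63, a tetraspanin of late endosomes, at 9.75 in Cav1-shRNA and 10.26 in cavtratin. MHC class I and peptide loading genes had 6 of 12 above 0 and 3 below, beside 25.9% and 19.4% of all genes at the floor. H2-K1, a class I heavy chain, was at 9.61 in Cav1-shRNA, 9.25 in cavtratin and 9.36 in AP control, and Psmb9, an immunoproteasome subunit, at 6.80, 6.37 and 6.34. Angiogenesis genes had 5 of 22 above 0 and 7 below, with Vegfa, the vascular endothelial growth factor, at 9.41 in Cav1-shRNA and 9.51 in cavtratin. Cholesterol genes had 4 of 13 above 0 and 4 below, and the interleukin-6 family 1 of 13 above and 7 below. The 2 measured red blood cell markers were below the floor in both arrays.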

How the data were processed

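Values were the authors' deposited log2 expression per probe set, 1 column per array. The log base was inferred from their range, and the sources used here do not give the summarisation, normalization or software. Among 41345 probe sets, GEO's platform annotation, whose symbols can be outdated, gave 23521 exactly 1 gene symbol and 1814 several, and 16010 were not listed. By Entrez identifier 23328 matched RefSeq of GRCm38.p6. The probe set with the highest mean over 3 arrays stood for each of 22180 genes. Equal means within 1e-09. Differences were taken in Python 3.11.15 with pandas 2.3.3, and no test was possible with 1 array per group, whose number limits the precision. Depth does not apply to arrays.

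The comparison, the 53 gene lists and the naming rule were chosen with earlier results of these data known. Named were the 15 highest and 15 lowest differences at the floor, without predicted models, small RNAs and multicopy families, Cav1, and of each list the members 2-fold apart and up to 4 with the largest differences at the floor. Genes named outside this rule (such as defining markers, Ly6c1, Il6 and receptors) were chosen after their values were seen. The counting was tested on simulated data. Alternatives were other scalings, floors, thresholds and probe set rules.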

Additional observations from a re-analysis of the deposited data

Results flagged for a closer look

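Probe sets that the annotation did not list, or that carried several symbols, entered no comparison of genes, yet some stood above the AP control array. In Cav1-shRNA 6 of them exceeded AP control by 2-fold or more, and in cavtratin 30 did. Set against cavtratin, Cav1-shRNA was higher by that fold in 6 of the 6311 that reached the floor and lower in 46. They have no single gene name here.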

How the results depend on the processing

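Centring each array, quantile normalization, subtraction of a loess trend and the mean of all probe sets gave 4 or 5 genes at least 2-fold higher and 85 to 90 lower, and all 4 main higher genes were among them. Without a floor there were 4 and 95, with a floor 0.5 higher 4 and 84, and with both arrays at the floor 2 and 61. A 1.5-fold threshold gave 11 and 175 genes, and a 3-fold threshold 1 and 26. Centring adds 0.051 to every difference. No named difference of at least 2-fold and no list median of at least 0.1 in size changed sign under these alternatives, the list mean, or members at the floor alone. With the mean of all probe sets 8 of 215 named differences moved by more than the probe set SD of 0.136, among them Cryaa to −2.20 and Slc7a11 to −0.58. The list mean moved 22 of 53 list values by more than that SD. Keeping only members at the floor moved 15 list medians by more than it and left 36 within it. No paired analysis was possible because each group has 1 array. Signal near background limits all values below the floor.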

Other observations

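Of the 90 genes at least 2-fold lower in Cav1-shRNA, 28 were in no gene list, and those named here were chosen after their values were seen. Surface ligands that restrain or costimulate T cells were among them. Cd274, or PD-L1, was at 8.02 in Cav1-shRNA, 9.36 in cavtratin and 7.64 in AP control, and Cd80, a ligand of CD28 and CTLA-4, was at 6.14, 7.52 and 6.14. Markers of T cells were below the floor in all 3 arrays. Receptors and adaptors of myeloid cells had the order AP control, Cav1-shRNA, cavtratin. Ptafr, the platelet-activating factor receptor, was at 7.67, 8.89 and 6.68 in Cav1-shRNA, cavtratin and AP control, Csf2rb2, a receptor chain for interleukin-3, at 7.41, 8.47 and 6.47, and Pik3ap1, an adaptor of phosphoinositide 3-kinase, at 8.76, 9.82 and 7.56.

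Other genes were lowest in Cav1-shRNA, below the floor for Grem1. Grem1, a secreted antagonist of bone morphogenetic proteins, was at 6.18 in Cav1-shRNA, 7.79 in cavtratin and 7.49 in AP control, and Zfp36, which destabilises cytokine messenger RNAs, was at 8.0, 9.09 and 8.49. Cell cycle genes showed no such difference, with 8 of 28 above 0, 1 below, 19 at 0 and none 2-fold apart.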
